A study of Mus musculus with 6 samples.

Results

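The genes that carry the insulin signal from its receptor to the kinase AKT were read on Affymetrix arrays of mouse muscle with and without the transcription factor TFEB. They are the receptor Insr, the docking proteins Irs1 and Irs2, the receptor brake Grb10, the phosphoinositide 3-kinase (PI3K) subunits Pik3r1 and Pik3ca, and the kinases Pdpk1, Akt1 and Akt2. These 9 genes were chosen by name out of 12393 genes on the array, and every probe set whose only gene symbol is one of them was taken. All 9 had a probe set of their own, 18 in total out of 22626 tested. Irs1 and Irs2 had 1 each, 5 genes had 2, and Grb10 and Pik3r1 had 3. The comparison was between 3 wild-type (WT) and 3 TFEB knockout (TFEB KO) C57BL/6 mice aged 1 month, with 1 array of muscle RNA per mouse. In the knockout, a floxed Tcfeb gene (the older name of Tfeb) was removed by Cre recombinase under the MLC1f promoter, which is active in muscle fibers, so that other cells of the tissue keep the gene. The muscle sampled is not named in the labels, which give no treatment besides the genotype. The values are log2 values per probe set made by RMA, and a change is the TFEB KO mean minus the WT mean on that scale.

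Insulin binds its receptor, a tyrosine kinase that phosphorylates Irs1 and Irs2. The docked PI3K, made of a regulatory and a catalytic subunit, then makes a membrane lipid that brings AKT to PDPK1, which phosphorylates it, and in muscle AKT2 drives glucose uptake and glycogen synthesis. Most of this control acts on proteins by phosphorylation, which arrays of RNA do not measure. TFEB and its relative TFE3 bind DNA at sites with the core CACGTG, and TFE3 is known to activate Irs2 in liver.

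The promoters of the docking proteins carry that core, so they are shown here before the expression values. RefSeq windows from 250 bases before to 50 bases after each annotated start (build GRCm38.p6) were read for 8 of the 9 genes, 15 windows in all, and Insr was not in the table. CACGTG, which reads the same on both strands, was found in 2 of the 8 genes, Irs1 and Irs2, starting 115 and 44 bases before the start of transcription. It is in 7.15% of all 32851 windows and in 8.09% of all 27025 genes with a window, so a match is a description of these letters and not evidence of binding. The longest runs of letters common to the Irs1 and Irs2 windows on the same strand have 10 letters, and there are 2 of them. One is the core extended on both sides, gtCACGTGtt, and the other, tgttttgctc, begins within or just after that core. The runs were looked for after the windows had been read, and only the one with the core was followed further. On either strand gtCACGTGtt occurs in 25 of the 32851 windows, 0.0761%, and 1 of the 25 is that of Irs4, another docking protein of the family, starting its core 154 bases before the start. The window of the remaining family member, Irs3, holds no CACGTG. Each stretch below is 80 bases of the minus strand, 5′ to 3′, with the CACGTG core in capitals. The Irs1 stretch lies at chr1:82291512-82291591, that of Irs2 at chr8:11008931-11009010 and that of Irs4 at chrX:141725329-141725408.
Irs1: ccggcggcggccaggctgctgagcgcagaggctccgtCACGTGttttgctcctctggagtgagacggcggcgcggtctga
Irs2: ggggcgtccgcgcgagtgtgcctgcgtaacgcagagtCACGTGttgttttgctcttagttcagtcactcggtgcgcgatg
Irs4: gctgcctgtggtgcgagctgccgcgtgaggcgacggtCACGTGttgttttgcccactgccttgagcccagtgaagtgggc
The Irs2 and Irs4 stretches share a longer run of 17 letters, gtcacgtgttgttttgc, which was also seen after the windows had been read. The longer palindrome TCACGTGA, held by 0.974% of all windows, was in none of the 15 windows of the 8 genes on either strand. GTAAACA, a core bound by FOXO factors (direct targets of AKT), was found on the reverse strand 161 bases before a start of Akt1, and 3.65% of all windows hold it on either strand.

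The deleted gene, Tfeb, read 8.61, 8.55 and 8.96 in WT mice and 7.10, 7.23 and 7.04 in knockouts, which matches the labels, although the sources used here do not say whether its probes lie in the deleted part. All 10 skeletal muscle markers measured were bright (the lowest at a mean of 13.18) and none was called. Markers of other cells of the tissue moved with the genotype. Of 10 macrophage markers 5 rose and all 10 lay above 0, and their summed linear signal was 1795 to 3204 in WT and 4714 to 7770 in TFEB KO arrays. Of 8 endothelial markers 4 fell, with sums of 1942 to 2147 in WT and 1300 to 1428 in TFEB KO arrays. Of the 7 fibroblast and tendon markers, which went both ways, the tendon genes Fmod and Tnmd fell, while 3 lay above 0. Pdgfra (0.42, adjusted p = 0.22) and Dcn (0.26, 0.25) were higher in every TFEB KO array without passing the test. In the same list Col3a1 was at 0.33 (0.61), Col1a1 at -0.82 (0.19) and Scx at -0.02 (0.97), none of them called. Of the smooth muscle markers 1 of 5 fell (Acta2) and of the Schwann cell markers 1 of 3 (Mbp). None of the 5 adipocyte markers was called, but array KO 1 was high, with Adipoq at 11.90 where KO 2 and KO 3 both read 9.90. No marker lay at 0, since RMA values do not reach it, and the dimmest in these lists of other cells had a mean of 5.49. The part of these shifts in the results that follow was not tested. Muscle was arrayed in bulk, so fewer cells of a type and less RNA per cell cannot be told apart.

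Of the 18 probe sets, 1 fell in TFEB KO muscle and none rose at an adjusted p under 0.05 from limma, against 0.844% of all probe sets lower and 0.751% higher, 1.6% in all. The one that fell was a dim probe set of Grb10. At an unadjusted p under 0.05, 3 were higher and 4 were lower, 38.9% of the 18 against 17.2% of all probe sets. The same 7, from 6 genes, were those whose groups did not overlap, which 23.0% of all probe sets also show. They were the higher probe sets of Pdpk1 (both) and Pik3r1, and the lower ones of Insr, Irs2, Grb10 and Akt2. The median change of the 18 was -0.09, and that of all probe sets was -0.02. Without regard to sign, the median size of change was 0.19 in the 18 and 0.12 in all probe sets. Changes ran from -0.69 for Irs2 to 0.49 for a probe set of Pik3r1.

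**Figure D1:**
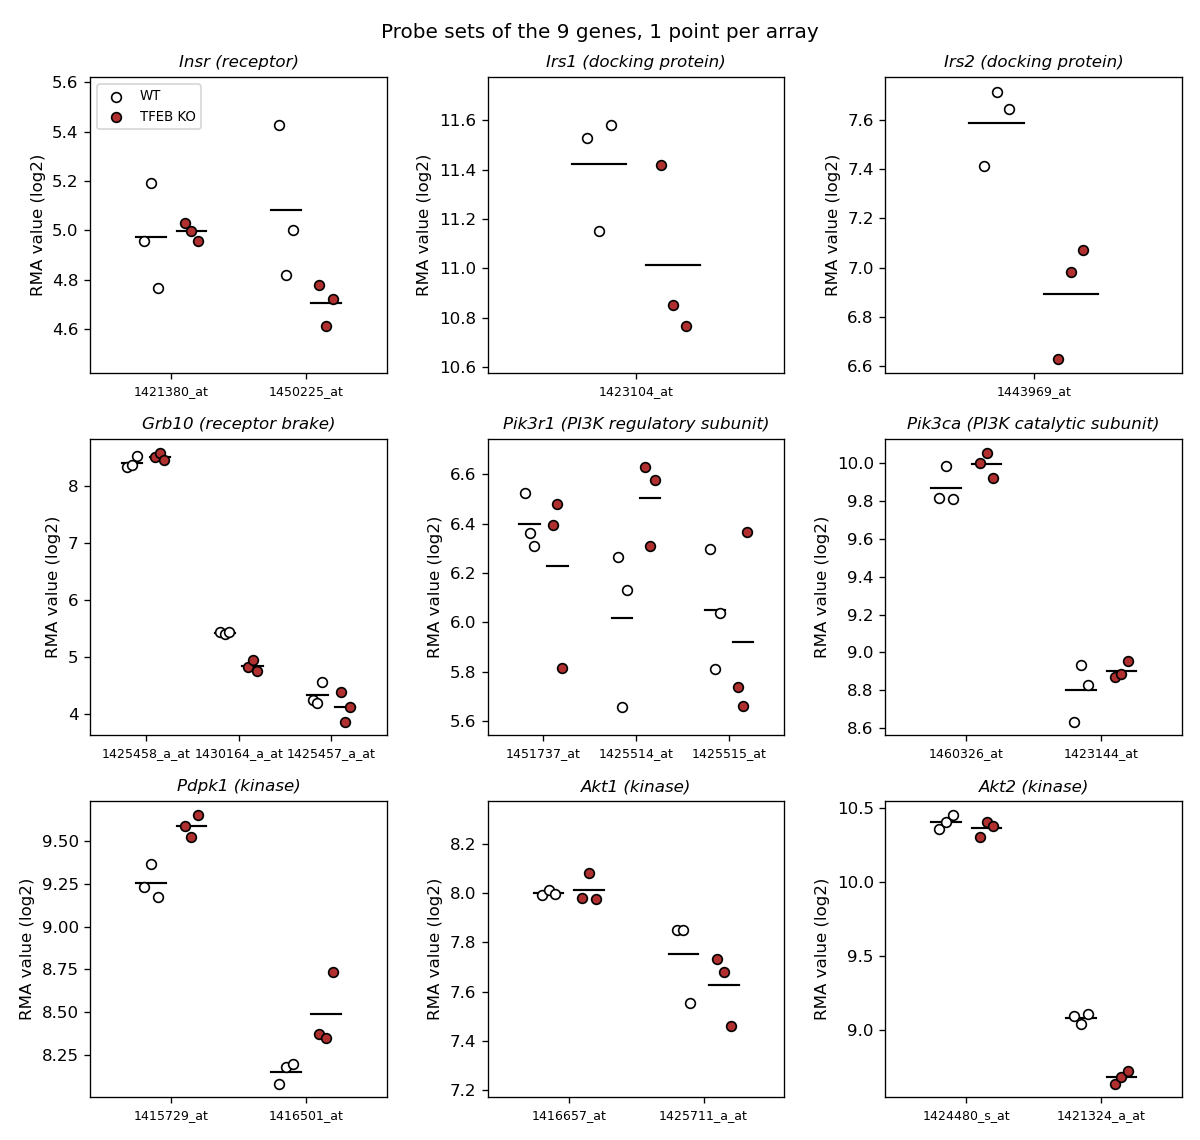
Log2 RMA values of the 18 probe sets of the 9 genes, 1 point per array (open, WT, n = 3; filled, TFEB KO, n = 3), with a line at each group mean and a separate axis for each gene. The filled points lie wholly below the open ones for Irs2 and for 1 probe set each of Insr, Grb10 and Akt2, and wholly above them for both probe sets of Pdpk1 and 1 of Pik3r1.

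Insr, the receptor, was dim on both of its probe sets, which rank near the 29th and the 28th percentile of brightness. On the first (1421380_at) WT mice read 4.96, 5.19 and 4.76 and knockouts 5.03, 5.00 and 4.96. The knockout values lay inside the WT range, and the change was 0.02 (95% confidence interval -0.25 to 0.30, adjusted p = 0.95). On the second (1450225_at) WT mice read 5.43, 4.82 and 5.00 and knockouts 4.78, 4.61 and 4.72. All knockout arrays were lower there, the nearest by a small margin, with a change of -0.38 (standard error 0.15, interval -0.73 to -0.03, adjusted p = 0.26). Without WT 1, the highest array, the change was -0.20 (adjusted p = 0.58). The probe sets of the receptor thus gave no common direction, and neither passed the test.

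Irs2, the docking protein that couples the receptor to PI3K, had the largest change of the 9 genes. It read 7.41, 7.71 and 7.64 in WT mice and 6.63, 6.98 and 7.07 in knockouts. Every knockout array lay below every WT array, with means of 7.59 ± 0.16 and 6.89 ± 0.23 (SD, n = 3 mice each). The change was -0.69 (standard error 0.14, interval -1.01 to -0.38), or 1.62-fold lower, and its adjusted p of 0.052 just missed the threshold. It passed under 7 of 10 other settings that give an adjusted p, but with none of the 6 arrays left out in turn (adjusted p from 0.065 to 0.17). Without KO 1, the array with the high Adipoq value and the lowest Irs2, the change was -0.56 (adjusted p = 0.065). Irs1, the other main docking protein of muscle, was bright and read 11.53, 11.15 and 11.58 in WT mice and 11.42, 10.85 and 10.77 in knockouts. KO 2 and KO 3 were below all WT arrays and KO 1 was within their range. The change of Irs1 was -0.41 (standard error 0.19, interval -0.84 to 0.02, adjusted p = 0.32), and with 1 array left out it ranged from -0.28 without KO 3 (adjusted p = 0.59) to -0.61 without KO 1 (adjusted p = 0.085). Irs1 and Irs2 both had a mean below WT, as 6614 of all 12393 genes did on their brightest probe set. Neither passed the test.

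Grb10, an adaptor that binds the activated receptor and dampens its signal, was read differently by its 3 probe sets. The brightest (1425458_a_at) read 8.34, 8.36 and 8.52 in WT mice and 8.50, 8.58 and 8.46 in knockouts. These groups overlapped, and the change was 0.11 (interval -0.10 to 0.32, adjusted p = 0.61). A dim probe set (1430164_a_at) read 5.44, 5.40 and 5.44 in WT mice and 4.83, 4.94 and 4.76 in knockouts. Here every knockout array was lower than every WT array, with means of 5.43 ± 0.02 and 4.84 ± 0.09 (SD, n = 3 mice each). It fell by 0.58 (standard error 0.09, adjusted p = 0.028), or 1.498-fold, the only call among the 18. The call held without KO 1 (adjusted p = 0.042) and was lost without any other single array, WT 1, WT 2, WT 3, KO 2 or KO 3 (0.062 to 0.12). The change itself stayed between -0.63 and -0.54 in all fits without 1 array. The dimmest probe set (1425457_a_at) read 4.25, 4.18 and 4.55 in WT mice and 4.38, 3.86 and 4.12 in knockouts. Its groups overlapped, with a change of -0.21 (adjusted p = 0.54). Averaged over the 3 probe sets, the change of Grb10 was -0.23 and the adjusted p was 0.23, so the fall is that of 1 probe set.

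Pik3r1 encodes the regulatory subunit of PI3K, which binds phosphorylated Irs1 and Irs2, and its 3 probe sets did not move together. The brightest (1451737_at) read 6.53, 6.36 and 6.31 in WT mice and 6.39, 6.48 and 5.81 in knockouts, a change of -0.17 (adjusted p = 0.67). Only KO 3 lay outside the WT range. Another (1425514_at) read 6.27, 5.66 and 6.13 in WT mice and 6.63, 6.31 and 6.58 in knockouts. All knockout arrays were higher there, KO 2 by a small margin over WT 1, with a change of 0.49 (standard error 0.17, interval 0.11 to 0.87, adjusted p = 0.19). Without WT 2, the lowest array, it was 0.31 (adjusted p = 0.38), and the mean over the 3 probe sets changed by 0.063. The third (1425515_at) read 6.30, 5.81 and 6.04 in WT mice and 5.74, 5.66 and 6.37 in knockouts, and the groups overlapped (-0.13, adjusted p = 0.80). Pik3ca, the catalytic subunit that insulin signaling mainly uses, was steadier. Its brighter probe set (1460326_at) read 9.82, 9.99 and 9.81 in WT mice and 10.002, 10.06 and 9.92 in knockouts, and the other (1423144_at) read 8.63, 8.94 and 8.83 and then 8.87, 8.88 and 8.95. The groups overlapped on both. The changes were 0.12 (interval -0.09 to 0.34) and 0.10 (interval -0.13 to 0.34), with adjusted p-values of 0.56 and 0.67.

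Pdpk1, the kinase that phosphorylates AKT at the membrane, was the member of which every probe set lay wholly higher in TFEB KO muscle. On 1415729_at WT mice read 9.23, 9.37 and 9.17 and knockouts 9.59, 9.52 and 9.65. On 1416501_at they read 8.08, 8.18 and 8.20, and then 8.38, 8.35 and 8.74. The groups did not overlap on either, and KO 3 was the highest array on both. The changes were 0.33 (standard error 0.09, interval 0.12 to 0.55, adjusted p = 0.13) and 0.33 (standard error 0.12, interval 0.06 to 0.61, adjusted p = 0.21), each 1.26-fold, and neither passed the test. Without KO 3 the change on 1416501_at was 0.21 (adjusted p = 0.42).

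Akt1, the widely expressed AKT form, read 7.99, 8.01 and 7.99 in WT mice and 7.98, 8.08 and 7.98 in knockouts on its brighter probe set (1416657_at). The groups overlapped and the change was 0.01, with an interval of -0.18 to 0.21 (adjusted p = 0.96). Its other probe set (1425711_a_at) read 7.85, 7.85 and 7.55 and then 7.73, 7.68 and 7.46, again with overlap (-0.13, adjusted p = 0.65). Akt2, the form that serves insulin-driven glucose uptake, was flat on its brighter probe set (1424480_s_at). That one read 10.36, 10.41 and 10.46 in WT mice and 10.31, 10.40 and 10.38 in knockouts, a change of -0.04 (interval -0.24 to 0.15, adjusted p = 0.85). The s_at ending of its name marks probes that can match transcripts of more than 1 gene. On the dimmer Akt2 probe set (1421324_a_at) WT mice read 9.10, 9.04 and 9.11 and knockouts 8.64, 8.69 and 8.72. The groups were well apart there for their spread, with means of 9.08 ± 0.04 and 8.68 ± 0.04 (SD, n = 3 mice each). The change was -0.40 (standard error 0.08, interval -0.60 to -0.21), or 1.32-fold lower, at an adjusted p of 0.060. It passed under 3 of 10 other settings and with none of the 6 arrays left out in turn.

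**Figure D2:**
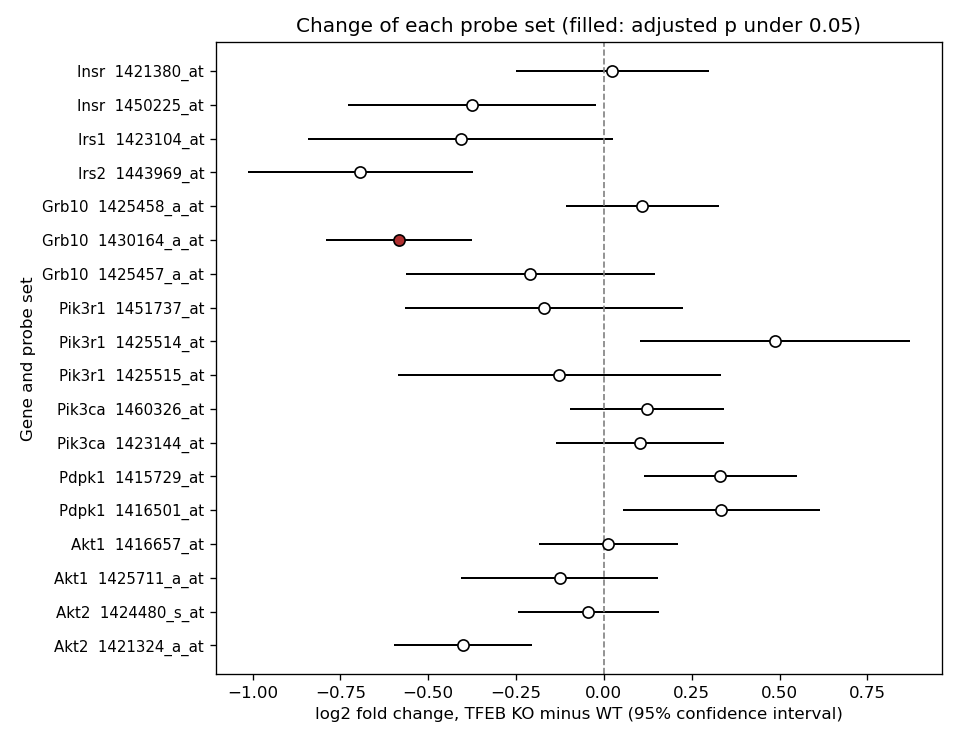
Change of each of the 18 probe sets, as the log2 TFEB KO mean minus the WT mean (n = 3 arrays each), with the 95% confidence interval from limma. The 1 filled point, Grb10 1430164_a_at at -0.58, passed the test, and 7 probe sets have an interval that lies wholly between -0.5 and 0.5.

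For 7 of the 18 probe sets the whole interval lay within 0.5 of no change on the log2 scale. They are the first of Insr, the brightest of Grb10, both of Pik3ca, both of Akt1 and the brighter of Akt2. For Pik3ca and Akt1 this holds on every probe set the array has. The remaining 11 intervals reach further, so changes beyond 0.5 remain within them.

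Since probe sets of 1 gene disagreed in Insr, Grb10, Pik3r1 and Akt1 as to sign, the difference between probe sets was taken within each array, a comparison made after the values had been seen. The 18 probe sets form 11 pairs of the same gene, and in 4 of them the groups did not overlap, where 19.1% of 12821 such pairs on the array do not. With 3 arrays against 3 the exact permutation test (two-sided) cannot go under p = 0.10, and adjusted over the 11 pairs these 4 are at 0.28, so none can pass. In Grb10 the dim probe set 1430164_a_at minus the brightest was -2.90, -2.96 and -3.08 in WT mice and -3.68, -3.64 and -3.70 in knockouts. The difference widened by a mean of -0.69 and varied little within each group. In Akt2 the dimmer minus the brighter probe set was -1.26, -1.37 and -1.34 in WT mice and -1.67, -1.72 and -1.66 in knockouts. That is a mean shift of -0.36, again far larger than the spread among mice of a group. The other 2 pairs were of Pik3r1, with 1425514_at against 1451737_at shifted by 0.66 and 1425515_at against 1425514_at by -0.61, both with wide spread in the knockout. The pairs of Pdpk1 (0.004) and Pik3ca (-0.02) shifted hardly at all. The a_at ending marks a probe set made for several transcripts of 1 gene, and which transcripts each probe set reads was not analysed here.

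**Figure D3:**
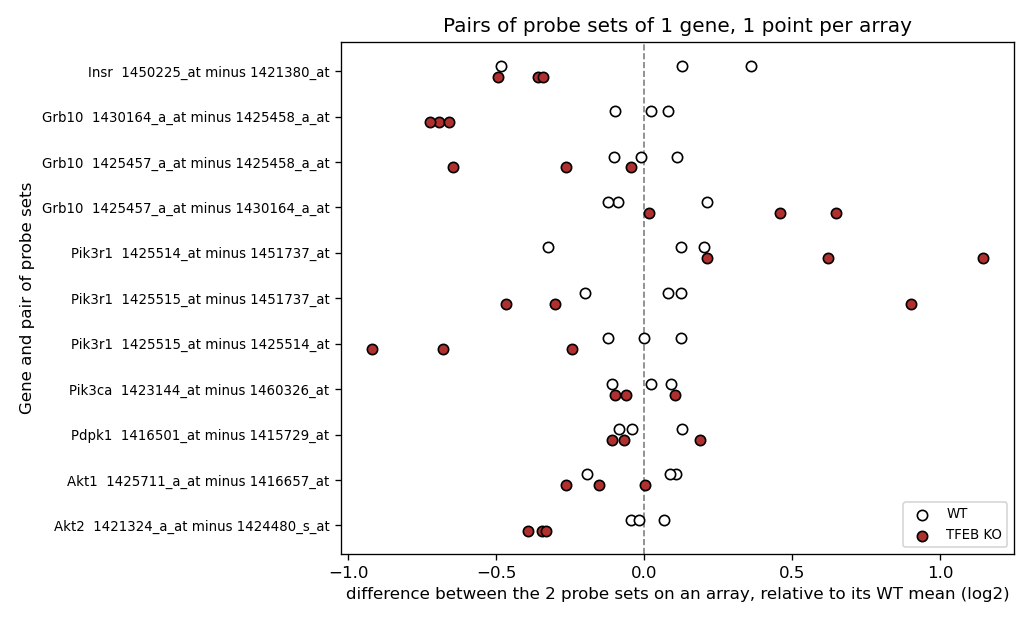
Difference between 2 probe sets of the same gene on each array, on the log2 scale and relative to the WT mean of that pair (open, WT, n = 3; filled, TFEB KO, n = 3). The filled points of Grb10 1430164_a_at and of Akt2 1421324_a_at lie in a tight group left of the open ones, while those of the Pdpk1 and Pik3ca pairs mix with them.

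Around these 9 genes, 51 other genes of the pathway were listed in 6 groups, of which 40 have a probe set of their own. The other 11 are not analysed here. On the brightest probe set of each, 1 of the 40 rose and none fell by limma, against 0.871% higher and 0.702% lower of all genes, 1.57% together. At an unadjusted p under 0.05, 5 were higher and 4 were lower, 22.5% of the 40 where 17.1% of all genes are, and the methods' t-test (named for the study in general and not for its arrays) after adjustment called none in either direction. The groups did not overlap in 12 of the 40 (30%), and in 23.8% of all genes. The median change of the 40 was 0.03, and that of all genes was -0.01.

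The gene that rose was Socs3, which binds activated receptors and marks Irs proteins for breakdown. It read 6.49, 5.98 and 6.06 in WT mice and 7.77, 8.29 and 8.66 in knockouts. Each knockout array was far above the highest WT array. The change was 2.06 (standard error 0.22, adjusted p = 0.013), and without KO 2 the adjusted p was 0.051. All 3 Socs3 probe sets rose. The value given is from the brightest, 1455899_x_at, and the other probe sets changed less, by 1.85 (1456212_x_at, adjusted p = 0.017) and 1.42 (1416576_at, 0.015). The other 6 receptor and IRS brakes measured were not called. Among them a dimmer probe set of Mapk8 (1437045_at) was at -0.49 and just missed the threshold (adjusted p = 0.0501). All TFEB KO arrays were lower there, while the brightest Mapk8 probe set was at 0.15 (0.52) and the dimmest at -0.13 (0.65). None of the 8 receptor and IRS adaptors was called, where Sos1, an activator of RAS, was at -0.31 (adjusted p = 0.29) and the adaptor Gab1 at -0.30 (0.22). Of the other PI3K forms, none of 5 was called on the brightest probe set. The catalytic subunits found mostly in leukocytes were Pik3cd at -0.22 (adjusted p = 0.36) and Pik3cg at 0.24 (0.20). A dim probe set of Pik3cd, 1422992_s_at, fell by 0.69 (adjusted p = 0.034), the only fall among the 84 probe sets of the 40 genes. The lipid phosphatases measured, Inppl1 (-0.29, adjusted p = 0.20) and Inpp5k (-0.17, 0.49), which oppose PI3K, did not pass. The other probe sets of Inpp5k were at -0.46 (1456412_a_at, adjusted p = 0.0502) and -0.26 (1438446_x_at, 0.27). On both of these all TFEB KO arrays were lower than all WT arrays, and the first just missed the threshold. Of 8 genes of the AKT kinase complex and its brakes none was called, with Mtor at -0.13 (0.52) and Mapkap1, a subunit of the mTOR complex that phosphorylates AKT, at -0.19 (0.35). Of 10 AKT targets none was called. The transcription factor Foxo1, which AKT keeps out of the nucleus, was at 0.30 (0.15), and Tsc2, the brake on mTOR that AKT releases, at -0.38 (0.19). The Foxo1 value is from a probe set with the s_at ending (1416983_s_at). Its other probe sets were at 0.05, 0.09 and -0.13, none of them called.

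**Figure D4:**
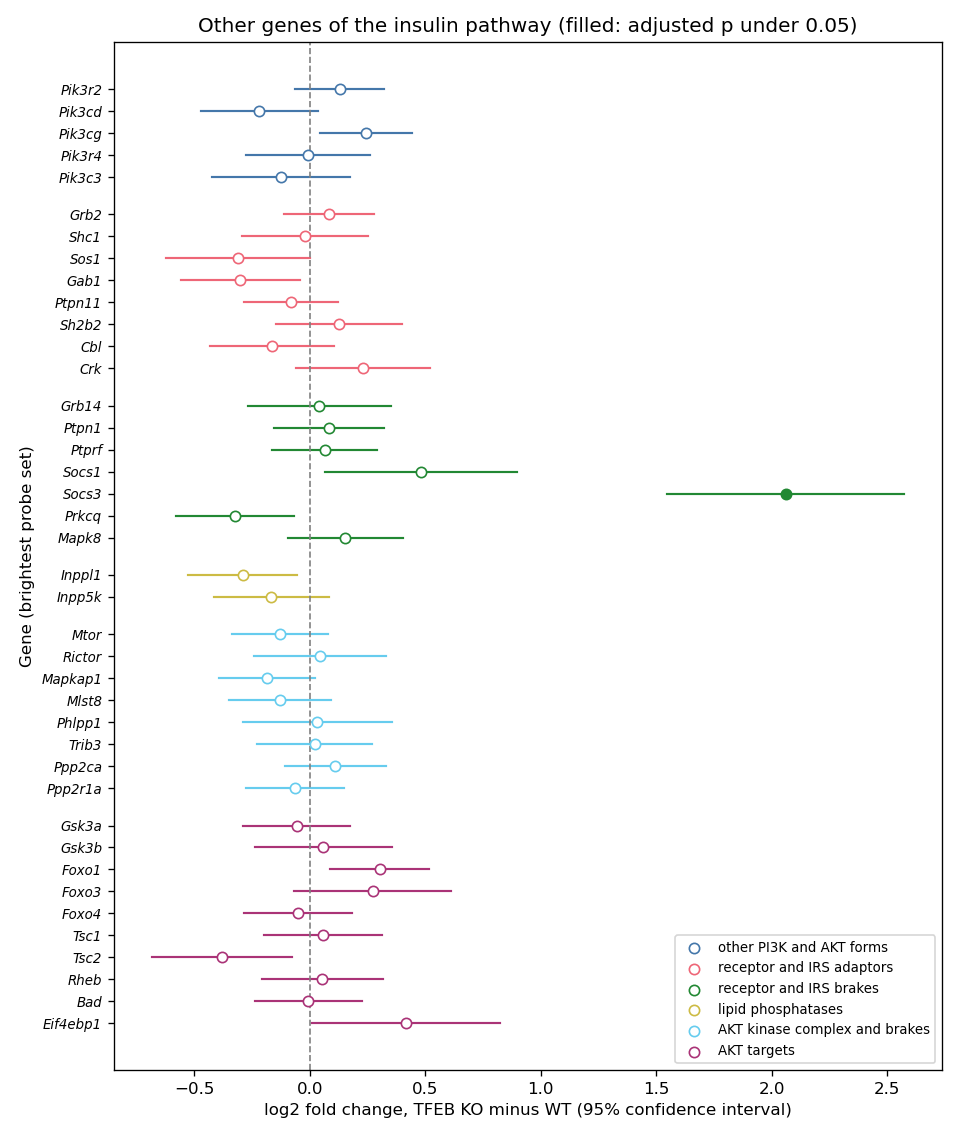
Change of the 40 other pathway genes on their brightest probe set, as the log2 TFEB KO mean minus the WT mean (n = 3 arrays each) with the 95% confidence interval, coloured by group. Socs3, the 1 filled point at 2.06, stands apart from the other 39, which lie between -0.38 and 0.48.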

How the data were processed

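Total RNA of muscle from 3 WT and 3 TFEB KO mice, called biological replicates in the labels, was labelled with biotin and hybridised to 6 Affymetrix arrays. The deposited values are log2 signals that the authors computed by RMA in the R package affy (versions not given in the sources used here). RMA equalises the arrays, so a shift common to most genes would mostly be lost. Array medians were 6.479 to 6.536. Depth does not apply, and the number of arrays limits the precision.

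From there, 64 control probe sets were left out and 22626 were fitted with limma 3.58.1 in R 4.3.3 (lmFit and eBayes, no covariate), two-sided, with Benjamini-Hochberg adjustment over all of them and a threshold of 0.05. Of these, 20380 carry 1 gene symbol in the platform annotation, 691 several and 1555 none. The 18 probe sets also matched their genes by Entrez ID. The text names all 9 genes and, from each other pathway list, the genes past the test or otherwise the 2 with the smallest p. Rheb is named besides for its promoter, and Mapk8 for a probe set near the threshold. Genes of lists are read on the probe set with the highest mean. The members, lists and markers were chosen with earlier results of these data known. Motifs were searched in RefSeq windows (GRCm38.p6). The fit was tested on simulated data in which only a small part of the 22626 probe sets was changed. It found 12.2% of log2 changes of 0.5, 86% of those of 1 and 99.4% of those of 2. In that setting a change near 0.5 was mostly missed. The share found depends on how many probe sets change, and it was not measured for the real arrays. The 17 other settings were 6 fits without 1 array, quantile normalization once more, arrays shifted to 1 common 75th percentile, a filter on dim probe sets (mean under 6), array weights, a replicate block, trended and robust moderation, a 1.5-fold minimum, the methods' t-test (Student's, named for the study in general and not for the arrays) with and without adjustment, control probe sets included, and averaging over the probe sets of a gene. Python 3.11.15, pandas 2.3.3, NumPy 2.4.6, SciPy 1.17.1 and matplotlib 3.10.9 were used.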

Additional observations from a re-analysis of the deposited data

How the results depend on the processing

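Counts of calls moved with the settings, and the cause was not tested. The 1 lower probe set of the 9 genes became 3 with a second quantile normalization, 3 with trended and robust moderation and 3 with the methods' t-test without adjustment, 2 with the 75th percentile and 2 with array weights, and 0 with the methods' t-test after adjustment or a 1.5-fold minimum. Leaving out dim probe sets removes the called Grb10 probe set, and 2 others are then lower, Irs2 (adjusted p = 0.045) and Akt2 1421324_a_at (0.042). Without 1 array it was 0 to 1. No probe set of the 9 genes was called higher except 1 with the methods' t-test without adjustment. Of the other pathway genes that t-test called 4 higher and 3 lower, and 0 higher after adjustment, while leaving out 1 array gave 0 to 1 higher. Over all probe sets, 170 were higher and 191 lower. The methods' t-test gave 0 and 1 after adjustment and 1338 and 1944 without it, and leaving out 1 array gave 17 to 235 and 4 to 203. Lower probe sets were 296 with array weights and 127 with a 1.5-fold minimum. Tfeb stayed at -1.58 with the methods' t-test but at an adjusted p of 0.13.

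Deviations of same-numbered arrays correlated at 0.088, 0.048 and 0.27. WT 2 was closest to KO 2 and WT 3 to KO 3, but WT 1 was closer to KO 2 (0.17) than to KO 1. With so few arrays, these correlations cannot decide whether the replicate numbers pair the arrays. With a replicate block, 2 probe sets of the 9 genes were lower, Irs2 had an adjusted p of 0.034, and 124 of all probe sets were lower.

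Signs turned for 5 probe sets of the 9 genes, none of them called. Insr 1421380_at was at -0.030 with array weights, and taking the mean of all probe sets gave -0.18 for Insr, -0.23 for Grb10, 0.063 for Pik3r1 and -0.056 for Akt1. Without 1 array, Insr 1421380_at ranged from -0.079 to 0.13, Pik3r1 1451737_at from -0.30 to 0.037, Pik3r1 1425515_at from -0.35 to 0.0033 and Akt1 1416657_at from -0.022 to 0.031. Of 486 checks of single values, 449 kept direction and side of the threshold, 10 lost a call, 17 gained one and 10 turned. Leaving out dim probe sets gives no value for 5 probe sets of the 9 genes.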

Other observations

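The 10-letter promoter run with the core shared by Irs1 and Irs2 (gtCACGTGtt) allowed a description of the other genes that carry it, chosen after the windows and the values had been seen and with no test. Of the 25 genes with it, 15 have a probe set of their own. Irs1 and Irs2 defined the run and are left out of the counts that follow. None of the other 13 was called by limma. Of these, 10 (76.9%) lay below 0, as did 53.3% of the 9872 genes without the run. The median change of the 13 was -0.13, and that of the genes without the run was -0.01. In 5 of the 13 all TFEB KO arrays were lower than all WT arrays and in 0 they were all higher, and of the genes without the run 12.8% were wholly lower and 10.9% wholly higher. The lowest of the 13 were Hoxd10, a homeobox factor, at -0.66 (standard error 0.13, adjusted p = 0.055), and Galt, an enzyme of galactose breakdown, at -0.42 (standard error 0.08, adjusted p = 0.051). Irs4 was dim and at -0.13 (adjusted p = 0.60). Mcoln1, a lysosomal calcium channel, was at -0.16 (adjusted p = 0.60) and Arsa, a lysosomal sulfatase, at 0.001 (adjusted p = 1.00), both of them known TFEB targets. For genes with the shorter core CACGTG, Irs1 and Irs2 left out, 14.1% were wholly lower and 12% wholly higher. Of the genes without that core 12.7% were wholly lower and 10.7% wholly higher. By limma, of 1067 genes with the core 11 rose and 1 fell, and of 8818 without it 71 rose and 65 fell. The medians were -0.01 in both. Of the 37 other pathway genes with a promoter window, 1 held the core, Rheb, which was at 0.05 (adjusted p = 0.86) with overlapping groups.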
